A study of Penicillium oxalicum with 6 samples.

Results

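The genes described here are the identifier neighbours of POX06601, a xylanase gene of the filamentous fungus Penicillium oxalicum. They comprise every gene numbered from POX06585 to POX06615, without POX06601 itself, that was listed in at least 1 of 6 RNA sequencing libraries. Of the 30 identifiers in this range, 29 were listed, out of 9284 genes listed in the series. The identifier POX06596 was listed in no library, which allows up to 0.16 CPM (read counts scaled to a common library size) over the 6 libraries together, counting error only. The range was drawn around POX06601 because the fold changes of the same strain comparison had shown a run of falling genes there. Those fold changes are therefore a description of the range, with no test of it. The files do not say whether neighbouring identifiers lie next to each other on a chromosome, and no gene but POX06601 has a known product here. The class of POX06601 comes from published work on this fungus and not from the deposited files.

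The libraries came from mycelium of 2 strains, with 3 libraries each. MuPOX00158 is a strain in which the gene POX00158, described by the submitters as a phosphokinase, was deleted. Ku70, also written MuKu70, is labelled as a mutant in Ku70 and is the comparison strain. Whether MuPOX00158 also carries the Ku70 mutation is not stated in the labels, and the number of independent clones is not given. Spores of both strains were grown on potato-dextrose agar for 6 days. About a gram of hyphae was then shaken for 24 h at 28 °C in basic medium with 1% Avicel, a microcrystalline cellulose. The stated aim was to learn how POX00158 affects transcript levels of cellulase and xylanase genes.

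Xylan is the main hemicellulose of many plant cell walls, and endo-xylanases cut its xylose backbone into shorter chains. Fungi that live on plant litter secrete xylanases together with cellulases, and transcription of both is commonly induced by plant polymers and repressed by readily used sugars. Genes of one pathway are often neighbours in fungal genomes, above all those for secondary metabolites, whereas genes of secreted plant cell wall enzymes are frequently scattered. Ku70 is a protein that binds broken DNA ends for non-homologous joining, and fungal strains without it are used because they integrate targeting constructs more precisely.

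Each library held between 2983815 and 3259601 estimated reads over 8677 to 8750 listed genes. The deleted gene POX00158 had at most 9 reads in a MuPOX00158 library and at least 569 in a Ku70 library, as the labels call for. Nothing in the labels ties the libraries to separate cultures, and the spread given here, on which the test rests, may be technical. In such bulk samples, fewer hyphae of a kind and less RNA per hypha cannot be told apart.

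The fall of POX06601 was shared by the 4 members nearest to it, POX06599 and POX06600 below and POX06602 and POX06603 above, and it stopped at POX06598 on one side and at POX06604 on the other. Beyond the upper edge the direction turned, and the 4 members from POX06604 to POX06607 rose. The largest change of the range was the rise of POX06595, 6 identifiers below POX06601. Of the 29 members, 24 had enough reads to be tested in a fit over 7757 genes. Of these, 7 fell and 5 rose (edgeR quasi-likelihood test, Benjamini-Hochberg adjusted p below 0.05 over all tested genes), and 12 did not pass. Among all tested genes 18.6% were called lower and 18.6% higher, against 29.2% and 20.8% of the tested members. All 12 changed members changed by 2-fold or more, so their shares of the tested members stayed at 29.2% and 20.8% with that minimum. Among all tested genes, 12.4% were called lower and 10.2% higher by 2-fold or more. These were 962 of the 1446 genes called lower and 792 of the 1442 called higher. Nothing is read from these shares, since the range was chosen on the same comparison. The median log2 fold change of the tested members was -0.10, beside 0.00 over all tested genes. The median size of the change, regardless of sign, was 1.13 for the members and 0.50 for all tested genes on the log2 scale.

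**Figure D1:**
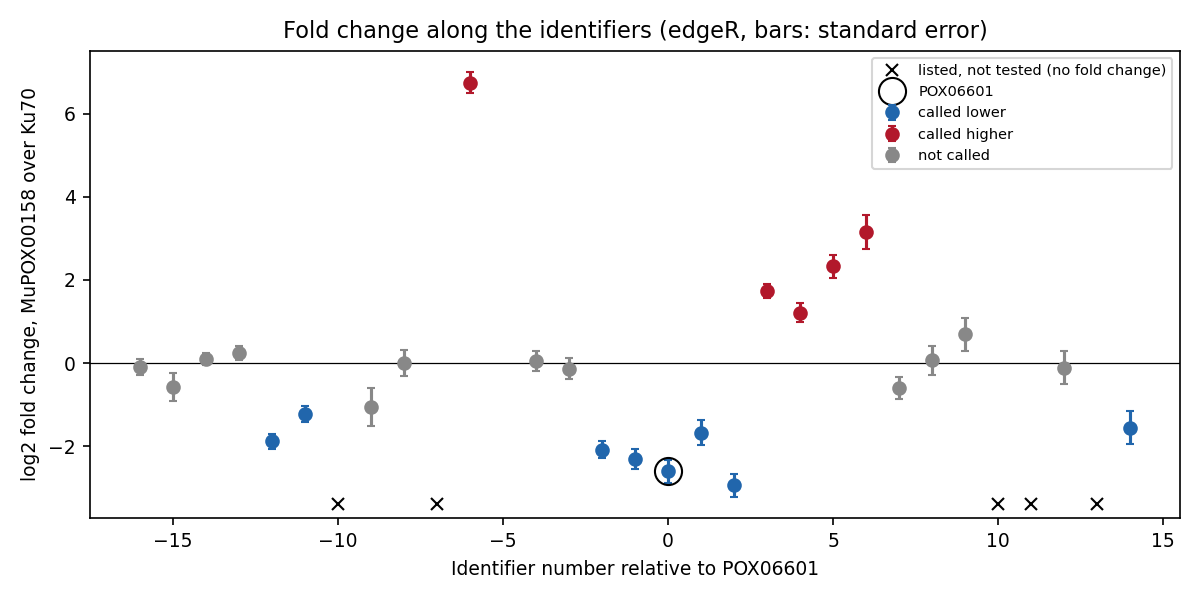
The log2 fold change of MuPOX00158 over Ku70 is plotted against the identifier number relative to POX06601 (circled, at 0), with bars for the standard error and crosses at the bottom for the 5 members that were not tested. The 5 genes from POX06599 to POX06603 lie between -2.95 and -1.68, and the next 4 lie between 1.21 and 3.15.

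POX06601 had 203, 121 and 212 CPM in MuPOX00158 and 927, 1084 and 1243 CPM in Ku70. Its log2 fold change was -2.60 (standard error, SE, 0.27), with the strains far apart. It is the reference against which the neighbours are read.

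Directly below it, POX06600 had 42.6, 60.3 and 51.9 CPM in MuPOX00158 and 177, 298 and 291 CPM in Ku70. The strains did not overlap, and the log2 fold change of -2.31 (SE 0.25) was close in size to that of the xylanase gene. POX06599, the next one down, had 269, 355 and 351 CPM in MuPOX00158 against 1232, 1535 and 1368 CPM in Ku70. This gene carried more reads than POX06601 in all 6 libraries and fell 4.24-fold (log2 fold change -2.08, SE 0.21).

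Directly above it, POX06602 had 28.5, 55.1 and 30.8 CPM in MuPOX00158 and 96.6, 108 and 162 CPM in Ku70. It had the smallest change of the run, with a log2 fold change of -1.68 (SE 0.31). MuPOX00158 replicate 2 was the highest of its strain for this gene and still lay below every Ku70 library. POX06603 had 15.7, 17.4 and 11.8 CPM in MuPOX00158 and 84.3, 111 and 152 CPM in Ku70. It fell the most of all members, 7.71-fold (log2 fold change -2.95, SE 0.27), and more than POX06601 in point estimate. Together the 4 members of the run had 1872 ± 248 CPM in Ku70 and 430 ± 67.4 CPM in MuPOX00158 (SD over 3 libraries each), which is 4.35 times more in Ku70. Most of these sums was POX06599, with means of 1378 CPM in Ku70 and 325 CPM in MuPOX00158. The summed ratio therefore chiefly restates the 4.24-fold fall of that gene.

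**Figure D2:**
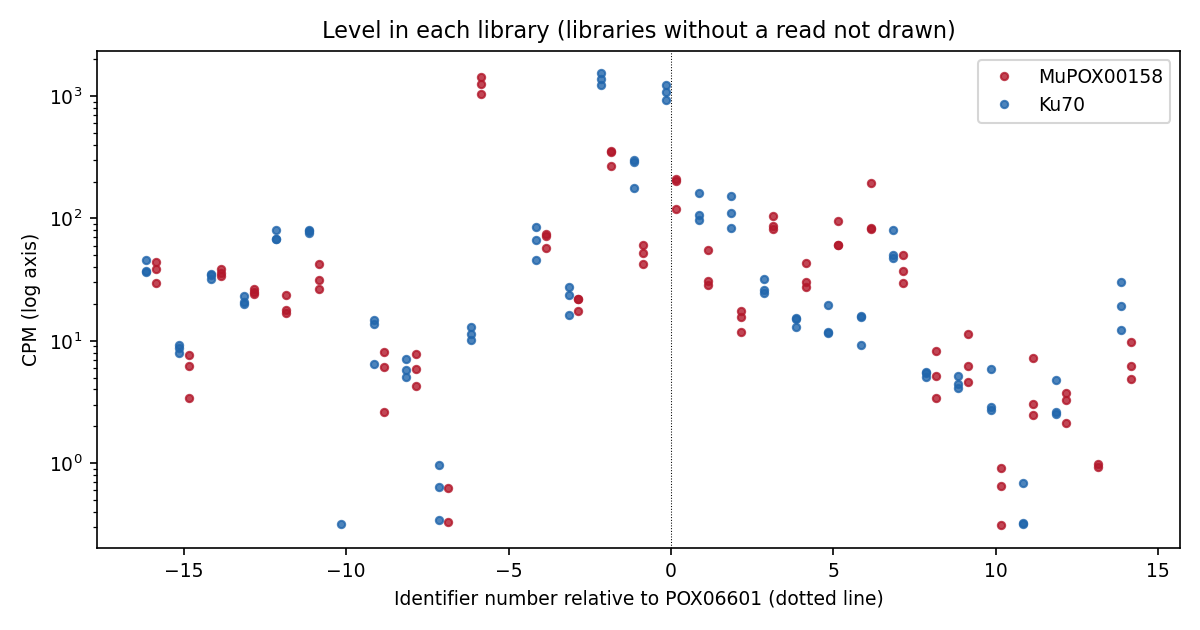
Each point is the CPM of a gene in a library, on a log axis, against the identifier number relative to POX06601, in red for MuPOX00158 and in blue for Ku70. Blue points lie above red ones from -2 to 2, and red points lie above blue ones from 3 to 6 and at -6.

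The edges of the run were set by the calls. The ratio of reads between 2 genes in the same library needs no scaling between libraries, and it is given here to describe these edges. The log2 ratio of POX06599 to POX06598 was 3.98 ± 0.36 in MuPOX00158 and 5.96 ± 0.24 in Ku70 (SD, n = 3 each), without overlap. The lower edge was thus a difference, MuPOX00158 minus Ku70, of -1.98 on the log2 scale. POX06598 had 21.9, 22.0 and 17.4 CPM in MuPOX00158 and 16.2, 27.7 and 23.5 CPM in Ku70, and its log2 fold change was -0.13 (SE 0.24). POX06597 had 75.3, 57.8 and 71.5 CPM in MuPOX00158 against 84.6, 46.1 and 66.7 CPM in Ku70, with a log2 fold change of 0.05 (SE 0.23). For both genes the libraries of the 2 strains overlapped, and neither passed the test.

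Inside the run, 2 of the 4 ratios of neighbours overlapped between the strains and 2 did not. Both outcomes were common elsewhere in the range, so nothing is read from this count. Even genes that were not called could differ in ratio without overlap, such as POX06586 to POX06585, with a difference of -0.55. That of POX06600 to POX06599 was -2.66 ± 0.10 in MuPOX00158 and -2.47 ± 0.30 in Ku70, and that of POX06601 to POX06600 was 1.76 ± 0.67 and 2.11 ± 0.27 (log2 ratios, SD, n = 3 each). Both overlapped between the strains. The ratio of POX06602 to POX06601 was -2.24 ± 0.97 in MuPOX00158 and -3.18 ± 0.21 in Ku70, and that of POX06603 to POX06602 was -1.29 ± 0.41 and -0.08 ± 0.12, both without overlap. POX06602 fell least in point estimate, but its gap to POX06601 leaned on MuPOX00158 replicate 2, with a ratio of -1.13. The other MuPOX00158 libraries had -2.82 and -2.78, close to -2.94 in Ku70 replicate 3. Without MuPOX00158 replicate 2, the log2 fold change of POX06602 was -2.04. Those of POX06599, POX06600 and POX06603 were then -2.15, -2.43 and -3.07. Relative to POX06601 in the same library, POX06599, POX06600 and POX06603 had ratios that overlapped between the strains, with differences of 0.55, 0.36 and -0.28 on the log2 scale. POX06602 kept a higher ratio to POX06601 in MuPOX00158, by 0.93 on the log2 scale, without overlap. Among the other 20 tested members, only POX06589 and POX06592 had ratios to POX06601 that overlapped between the strains. Since POX06601 itself fell, a member that held its level or rose has a different ratio to it. These ratios therefore largely restate the fold changes and do not set the run apart.

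At the upper edge the change reversed from one identifier to the next. The log2 ratio of POX06604 to POX06603 was 2.60 ± 0.47 in MuPOX00158 and -2.03 ± 0.61 in Ku70 (SD, n = 3 each), a difference of 4.64. POX06604 therefore had more reads than POX06603 in every MuPOX00158 library and fewer in every Ku70 library. Both genes moved, in opposite directions.

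**Figure D3:**
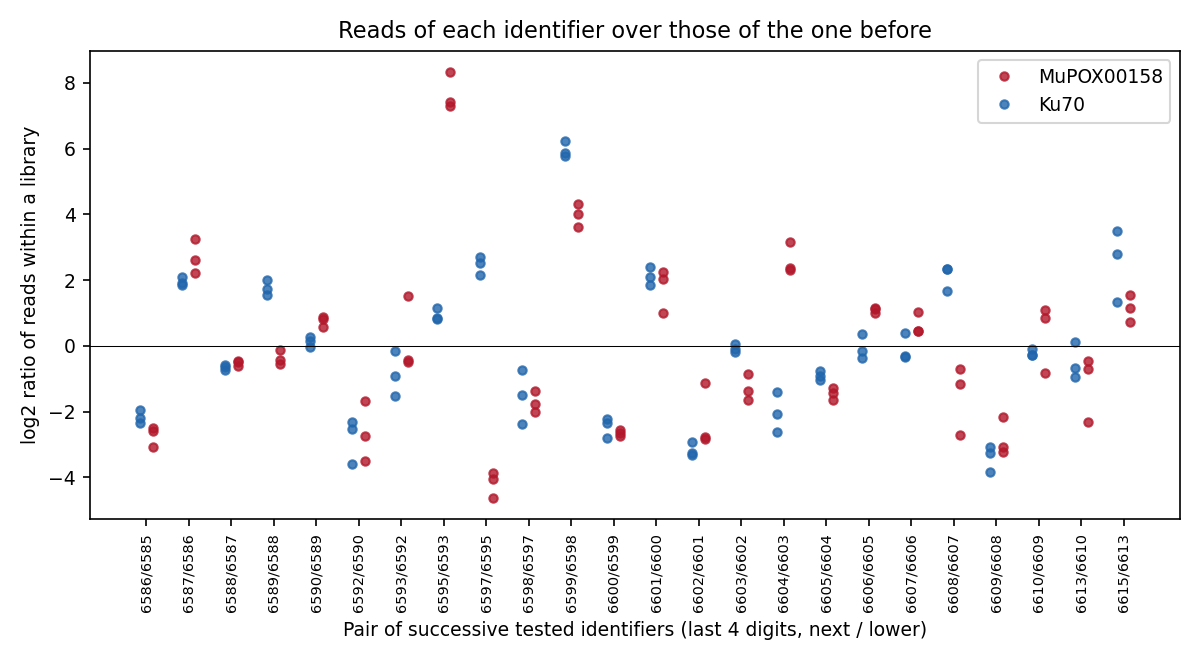
The log2 ratio of reads of each tested identifier to the tested identifier before it is shown for every library, in red for MuPOX00158 and in blue for Ku70. The strains are widest apart on both sides of POX06595, at POX06604 over POX06603 and at POX06608 over POX06607, and inside the falling run they overlap at POX06600 over POX06599 and POX06601 over POX06600 but not at POX06602 over POX06601 or POX06603 over POX06602.

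The 4 members above the run rose together in call, by unequal amounts. POX06604 had 81.9, 86.3 and 106 CPM in MuPOX00158 and 31.8, 26.0 and 24.8 CPM in Ku70 (log2 fold change 1.73, SE 0.18). POX06605 had 30.1, 27.5 and 42.9 CPM in MuPOX00158 and 15.24, 15.03 and 13.02 CPM in Ku70, the smallest rise, with a log2 fold change of 1.21 (SE 0.23). No Ku70 library reached the level of a MuPOX00158 library in either gene. POX06606 had 60.9, 60.3 and 95.1 CPM in MuPOX00158 and 19.8, 11.6 and 11.7 CPM in Ku70 (log2 fold change 2.32, SE 0.29). POX06607 had 83.5, 82.6 and 196 CPM in MuPOX00158 and 15.9, 9.22 and 15.6 CPM in Ku70, and rose 8.86-fold (log2 fold change 3.15, SE 0.41). MuPOX00158 replicate 3 was the highest library for all 4 genes and stood far above the other two for POX06607. In sum they had 69.9 ± 11.2 CPM in Ku70 and 318 ± 106 CPM in MuPOX00158 (SD over 3 libraries each).

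The rise ended at POX06608, which had 37.0, 50.2 and 29.8 CPM in MuPOX00158 and 80.7, 47.1 and 49.8 CPM in Ku70. Its log2 fold change was -0.60 (SE 0.27), and it did not pass the test. The log2 ratio of POX06608 to POX06607 was -1.53 ± 1.04 in MuPOX00158 and 2.11 ± 0.38 in Ku70, a difference of -3.64 with no overlap.

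Per length, POX06595 stood at position 10 of the 30 listed genes of the range in Ku70, POX06601 included, and at the top in MuPOX00158. It had 1262, 1426 and 1040 CPM in MuPOX00158 and 12.97, 10.25 and 11.43 CPM in Ku70, with a wide gap between the strains. The rise was 107-fold (log2 fold change 6.74, SE 0.26) and ranked 102 among the 7757 tested genes. By mean FPKM (fragments scaled by gene length and library size) it ranked 24 of all 9284 genes in MuPOX00158 and 4390 in Ku70. Its effective length, implied by the deposited reads and FPKM, was 387 bases. The nearest tested identifiers, POX06593 and POX06597, had log2 fold changes of 0.00 (SE 0.31) and 0.05, neither past the test, and POX06594 had at most 3 reads in any library. With this gene included, the summed reads of all 29 members overlapped between the strains, at 2411 ± 190 CPM in Ku70 and 2316 ± 176 CPM in MuPOX00158 (SD over 3 libraries each). In FPKM the sums did not overlap, at 1999 ± 126 in Ku70 and 4197 ± 384 in MuPOX00158. POX06595 made up 53.5 ± 5.73% of the sum in CPM in MuPOX00158 and 0.484 ± 0.0969% in Ku70, whereas POX06599 made up 14.04 ± 1.83% and 57.1 ± 2.97%. Without POX06595, the sum in CPM was 1073 ± 115 CPM in MuPOX00158 and 2399 ± 191 CPM in Ku70.

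Away from the centre, 3 further members fell. POX06589 had 17.0, 23.9 and 17.7 CPM in MuPOX00158 and 80.7, 67.6 and 68.3 CPM in Ku70 (log2 fold change -1.88, SE 0.19). Its neighbour POX06590 had 31.1, 42.2 and 26.4 CPM in MuPOX00158 and 79.1, 80.6 and 75.6 CPM in Ku70 (log2 fold change -1.24, SE 0.19). Both were lower in every MuPOX00158 library than in any Ku70 library, and they were cut off from the run at POX06601 by identifiers that did not pass the test or, in POX06595, rose. POX06615, the last member, had 9.83, 4.90 and 6.21 CPM in MuPOX00158 and 19.1, 12.3 and 30.2 CPM in Ku70 (log2 fold change -1.56, SE 0.40). Its libraries did not overlap, but the Ku70 libraries varied by 43.9% (coefficient of variation). The call was lost without MuPOX00158 replicate 2 or 3, without Ku70 replicate 3, and at an adjusted p below 0.01.

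At the lower end of the range, the outermost member POX06585 had 38.7, 43.8 and 29.8 CPM in MuPOX00158 and 45.4, 36.5 and 37.1 CPM in Ku70, with a log2 fold change of -0.09 (SE 0.19). Just outside the range, POX06584 had 2 reads in MuPOX00158 replicate 3 and none in the other libraries. On the upper side, POX06616 had 31.4, 39.2 and 21.1 CPM in MuPOX00158 and 115, 43.7 and 35.6 CPM in Ku70. Its log2 fold change was -1.08 (SE 0.45) and did not pass the test, with Ku70 replicate 1 far above the other libraries.

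No change was called in the remaining tested members. POX06586, POX06587, POX06588, POX06592, POX06593, POX06609, POX06610 and POX06613 had log2 fold changes that ran from -1.05 for POX06592 (SE 0.45) to 0.69 for POX06610 (SE 0.39). In CPM, POX06588 was slightly higher in every MuPOX00158 library than in any Ku70 library, with a log2 fold change of 0.24 (SE 0.17). POX06586 was slightly lower in CPM, with one of -0.58 (SE 0.33), although MuPOX00158 replicate 2 and Ku70 replicate 3 both had 25 reads of it. Counting these, 8 tested members were lower without overlap and 6 were higher without overlap, where 24.2% and 27.5% of all tested genes were.

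The 5 members that were not tested had few reads. POX06611 had 2, 3 and 1 reads in MuPOX00158 and 18, 8 and 9 reads in Ku70. POX06612 had 22, 10 and 8 reads in MuPOX00158 and 1, 2 and 1 reads in Ku70. These neighbouring genes thus had opposite patterns, each without overlap. POX06614 had 3, 0 and 3 reads in MuPOX00158 and none in Ku70, where 0 reads allow up to 0.327 CPM over the 3 libraries. POX06591 had a single read in all, in Ku70 replicate 3, and POX06594 had 3 reads or fewer in each library.

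Levels per length put the falling run at the top of the range in Ku70 and not in MuPOX00158. In Ku70, POX06599 led with 1197 ± 80.4 FPKM and POX06601 followed with 694 ± 111 FPKM (SD, n = 3 each). Next came POX06600 with 147 ± 36.4, POX06590 with 128 ± 4.57, POX06603 with 104 ± 32.9 and POX06602 with 77.0 ± 24.2 FPKM. Within these 4, each overlapped with the next in the order, so their ranks among themselves are not settled. All 4 lay above every member further down in each Ku70 library. In MuPOX00158, POX06595 led with 3278 ± 425 FPKM, followed by POX06599 with 299 ± 46.9 and POX06601 with 121 ± 36.1 FPKM. Members of the rising block came next, POX06606 with 94.3 ± 28.9, POX06607 with 93.2 ± 52.9 and POX06604 with 60.7 ± 9.97 FPKM, and from POX06601 to POX06604 in this order each overlapped with the next. POX06603 had dropped to 14.1 ± 2.37 FPKM, position 17 of 30 with POX06601 included, from position 5 in Ku70.

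None of the 4 members of the run was lowest in the same MuPOX00158 replicate as POX06601, whereas in Ku70 all 4 were lowest in its lowest library. In MuPOX00158, POX06601 was lowest in CPM in replicate 2, whereas POX06599, POX06600, POX06602 and POX06603 were highest there. For POX06599 the lead was slight, at 355 CPM against 351 in replicate 3. In FPKM its order was reversed, at 319 against 332. The log2 ratio of POX06602 to POX06601 was -1.13 in that library and -2.82 and -2.78 in replicates 1 and 3. In Ku70, replicate 1 was the lowest library for all 5 genes from POX06599 to POX06603. The same library was the highest of the Ku70 libraries in CPM for all 4 genes from POX06604 to POX06607. For POX06605 the lead was slight, at 15.24 CPM against 15.03 in replicate 2. For POX06607 it came from the scaling alone, since replicates 1 and 3 both had 49 reads. With 3 libraries per strain, no correlation was computed for these orders.

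Around other xylanase identifiers, the calls were mixed as well. For 6 other genes of a recalled xylanase list, all called lower, the same span of 16 identifiers below and 14 above held 21 to 27 tested neighbours. Between 1 and 10 of them were called lower, with a median of 3, and between 1 and 6 were called higher. Over all tested genes, 18.6% were called lower and 18.6% higher, and nothing is read from the counts of neighbours. Runs were counted over tested identifiers, so those that were not tested were skipped. The unbroken run of neighbours called lower had 5 members around POX08484, 2 around POX04274, 1 each around POX05916 and POX08990, and none around POX00063 and POX06783, beside 4 around POX06601. Around POX08484 the run skipped 2 identifiers that were not tested, and held 4 members when it was ended there. With a 2-fold minimum, applied to these genes after their values were seen, 1 member was left around POX08484 and 2 around POX04274, beside 4 around POX06601. The difference in run length between these genes was not tested. POX06601 was chosen because a falling run had been seen there and the others were not, so nothing is read from its place among them. Another identifier of the list, POX00055, was in no table. Of 24 tested genes around its number, 6 were called lower and 5 higher.

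**Figure D4:**
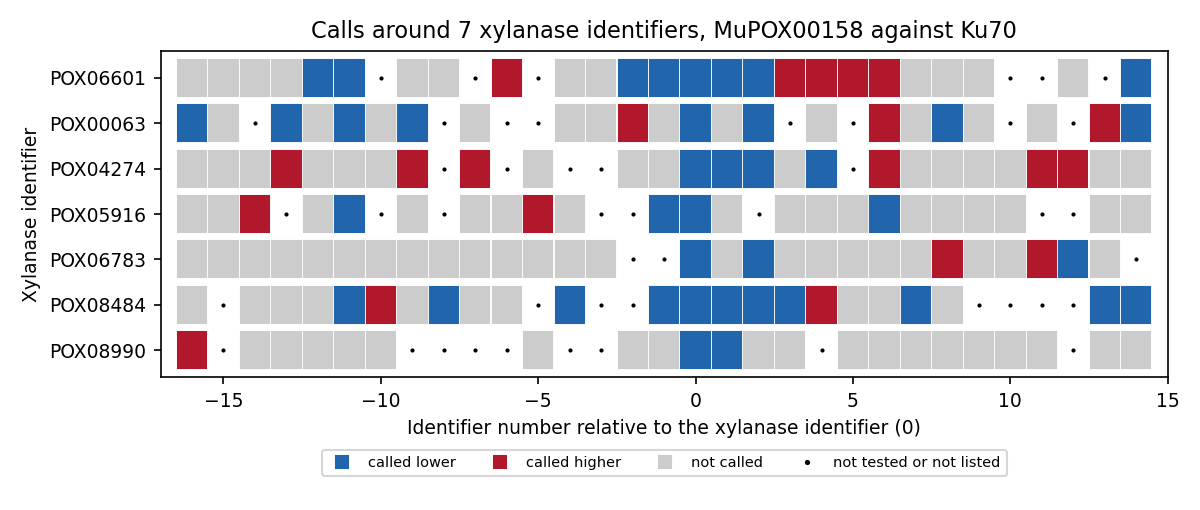
Each line shows the calls of the identifiers around a xylanase identifier (at 0), by identifier number relative to it: blue for called lower, red for called higher, grey for not called in MuPOX00158 against Ku70, and a dot for identifiers that were not tested or not listed. The blue run holds 4 neighbours around POX06601, 5 around POX08484 if the 2 dots within it are skipped (4 if not), and none around POX00063 and POX06783.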

How the data were processed

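Total RNA was extracted with TRIzol and its cDNA sequenced on an Illumina HiSeq system, per the labels' protocols. The authors deposited 1 table per library with an expected count per gene, the estimated number of reads assigned to it, and an FPKM value scaled by gene length and library size, per the file headers. The submitters' processing notes name BWA 0.7.10-r789, DESeq2, RSEM 1.2.12 and Bowtie2 2.1.0, with no role for any. Genome build, annotation and strandedness were not given in the sources used here. Genes missing from a table were taken as 0. No member had a fractional count. A RefSeq table of the species was not used: its gene lengths and the lengths implied by the files under the same numbers had a Spearman correlation of 0.01 over 3734 genes. No sequence, name or position is given for this reason.

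Expected counts were rounded, and edgeR 4.0.16 (R 4.3.3) was run with filterByExpr (minimum count 10, minimum total 15), TMM factors and the quasi-likelihood test of strain over 7757 genes, Benjamini-Hochberg adjusted at 0.05. CPM use TMM-scaled library sizes. The SE is the size of the log2 fold change over the root of the F statistic. Read ratios used a pseudocount of 0.5. Alternatives used limma 3.58.1 on log2 FPKM and DESeq2 1.42.0. Replicate numbers follow the order of deposition. The titles end in F, S or T in both strains. Deviations from the strain means correlated at 0.15, 0.22 and 0.16 between libraries with the same letter and at -0.18 to 0.03 between others. Deviations from a mean of 3 libraries balance out, so higher values for same letters force lower ones for the others. The check therefore cannot establish that the letters pair the libraries. The main fit did not use the letter, and a fit with the letter as a block was made as an alternative. What the letters stand for is not stated. The members, the xylanase list and the tests were chosen with earlier results of these data known. Values in every library are given for members within 5 identifiers of POX06601, for those called lower or higher by 2-fold or more and for the ends of the range. Values of POX06608 and of the members that were not tested were added after they were seen.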

Additional observations from a re-analysis of the deposited data

How the results depend on the processing

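The unbroken run of 4 members around POX06601 was found with plain library sizes, upper-quartile factors, DESeq2 size factors, no filter, a minimum count of 50, DESeq2, limma on log2(FPKM + 1) and log2(FPKM + 0.1), an adjusted p below 0.01, the replicate block and each library left out. Members called lower numbered 6 to 8 and members called higher 5 to 6 across these settings. Over all genes tested at each setting (6392 to 9284), 868 to 1707 were called lower and 852 to 1625 higher. Nothing is therefore read from the steadiness of the member counts. With a library left out, 6 to 7 members were called lower and 5 higher. The run was then 4 with and without the 2-fold minimum, and the median log2 fold change of the members ran from -0.20 to 0.00. With the replicate block the counts were 7 lower and 5 higher, the median was -0.10, and no member's call changed. POX06611 and POX06612 were called lower and higher without the filter and in DESeq2, which test them. Of 353 comparisons of the 24 tested members with 15 settings, 350 kept their call, 3 lost it (POX06615, without MuPOX00158 replicate 2 or 3 or Ku70 replicate 3) and none reversed. The threshold of 0.01 is not among these settings, and POX06615 was not called there either. Members that a minimum count of 50 removed, POX06615 among them, are not compared at that setting. In 15 comparisons the sign differed, but the gene was called in neither fit. The log2 ratio of the summed level of the members, -0.06 in CPM, was 1.07 in FPKM, which gives POX06595 more weight by its short length, and -1.16 without POX06595, a setting chosen after seeing the data. It ran from -0.12 to -0.02 with a library left out. Around POX08484 the run of 5 neighbours was 1 with a 2-fold minimum and 4 when ended at an identifier that was not tested, both settings also chosen after seeing the data. Low depth limits what can be said of the 5 members that were not tested.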
